A study of Mus musculus with 16 samples.

Results

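The core circadian clock of the mouse kidney was described through 8 genes, which are the activators Bmal1, Npas2 and Clock and the repressors Cry1, Cry2, Per1, Per2 and Per3. They were found by symbol and are 8 of 57186 rows of the gene table, with a single row each. Their transcripts are 36 of 149194 rows of the transcript table, and 26 of the 36 had at least 100 counts over all libraries. RNA was sequenced from the kidneys of 16 male mice in 4 labelled groups of 4. Non-diabetic mice (ND) were Elmo1H/HIns2+/+ and diabetic mice (D) were Elmo1H/HIns2A/+, which the treatment text of the labels spells Elmo1H/HIns2Akita/+. The Akita allele encodes a misfolded proinsulin that damages the pancreatic beta cells. Elmo1H/H, an allele that raises the expression of Elmo1, was present in every mouse, the controls included, so no group here has a normal Elmo1 gene. Untreated mice formed the groups ND_C and D_C, and mice given vitamin B12 in drinking water at 10 mg/kg of body weight per day from 8 weeks of age formed ND_B12 and D_B12. The labels give 16 weeks of B12, whereas the methods give 8 weeks and an age of 16 weeks at collection. All kidneys were taken in a single window of the light phase after a short fast, so a shift of phase and a change of level or amplitude cannot be told apart in any clock gene. The sample is whole kidney, in which fewer cells of a type and less RNA per cell cannot be told apart either.

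The circadian clock is a feedback loop of transcription that runs in nearly every cell. BMAL1 pairs with CLOCK or with its close relative NPAS2, and the pair switches on genes that carry E-boxes, among them the Per and Cry genes. The PER and CRY proteins then return to the nucleus and hold the pair back, so activator and repressor transcripts peak at different times of day. In the kidney the loop sets daily rhythms of sodium, water and potassium handling.

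The labels did not match the study's own table of group means. Over 154 genes, each group column of that table was set against the means of all 1820 sets of 4 libraries. The sets closest to it were ND_C 1, 2 and 4 with ND_B12 1 for its ND_C column, and ND_C 3, ND_B12 2 and 3 with D_C 1 for its ND_B12 column. The 4 libraries labelled D_B12 were closest to its D_C column, and ND_B12 4 with D_C 2, 3 and 4 to its D_B12 column. The median absolute log2 difference was between 0.00012 and 0.000191 for these sets and between 0.0369 and 0.259 for the labelled sets. Only 5 of 16 libraries bear the same group name in both. No gene in the table checks the genotype, so every group and direction here is that of the labels. The sets closest to that table were also put in place of the labels. The difference of mean CPM between D_B12 and D_C would then take the opposite sign in 8 of the 8 clock genes. In diabetic kidneys the paper itself reported Bmal1, Clock and Npas2 as lower with B12, and the Cry and Per genes as higher. It also checked selected genes by RT-PCR. The directions given below for D_B12 minus D_C, which follow the labels, are the reverse of the paper's.

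Total counts per library ran from 65271308 to 91771136, and the 8 clock genes had between 121 counts (Npas2) and 10087 counts (Clock) in a library. The summed level of 9 kidney marker genes was 12222 to 15091 CPM, the counts scaled to the library's normalized total, in the 16 libraries and 12528 to 12820 in D_B12. Every D_B12 sum was thus smaller than the smallest sum of ND_C (13458 CPM) or ND_B12 (14115 CPM). The range of D_C, 12222 to 14761 CPM, enclosed that of D_B12. Some single markers varied more than the sum, Aqp2 from 49.9 to 337 CPM and Slc12a1 from 749 to 1614 CPM. Slc34a1 ran from 4272 to 5569 CPM. Whether the kidney's cell composition differed between libraries was not tested. Among markers of other tissues, adrenal Cyp11b1 was at 0 in every library and Cyp21a1 at most at 0.0459 CPM. Adrenal Star ran from 3.57 to 7.37 CPM. The 2 liver markers summed to 10.1 to 48.5 CPM and the 2 red cell markers to 166 to 297 CPM. The 2 skeletal muscle markers summed to at most 0.181 CPM, and the 2 adipocyte markers ran from 0 to 35.1 CPM without following the groups. Mitochondrial genes took 12.4 to 13.1% of the counts in D_B12 and 8.35 to 11.9% in the other 12 libraries. Each library name holds a date. No date is shared by D_C and D_B12, by ND_C and D_C, or by ND_B12 and D_B12. Date and group cannot be told apart in those comparisons. ND_C and ND_B12 share only the date of ND_C 4 and ND_B12 1.

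The promoters of the repressor genes Per1, Per3, Cry1 and Cry2 are shown because they carry the letters that clock factors are known to bind. RefSeq windows from 250 bases before to 50 bases after a start matched 7 of the 8 genes (Bmal1 under its older name Arntl), 11 windows in all, on build GRCm38.p6. Per2 had no window and was not searched. The letters searched on both strands were CACGTG (E-box), CACGTT (E-prime box), TNGGTCA (ROR element, the site of ROR and REV-ERB receptors), TTATGTAA or TTACGTAA (D-box, the site of DBP) and TGACGTCA (CRE). Of 32851 windows of this length, 7.15% held an E-box, 4.68% an E-prime box, 11.0% a ROR element, 1.06% a D-box and 1.79% a CRE. Below are the 250 bases before the start of Per1 (chr11:69098699-69098948, plus strand), with its E-box in capitals, and of Per3 (chr4:151044666-151044915, minus strand), with its 2 D-boxes in capitals. For Cry1 (chr10:85185055-85185304, minus strand) the capitals mark an E-prime box on the opposite strand and an E-box, and for Cry2 (chr2:92434070-92434319, minus strand) an E-prime box on the opposite strand.
Per1: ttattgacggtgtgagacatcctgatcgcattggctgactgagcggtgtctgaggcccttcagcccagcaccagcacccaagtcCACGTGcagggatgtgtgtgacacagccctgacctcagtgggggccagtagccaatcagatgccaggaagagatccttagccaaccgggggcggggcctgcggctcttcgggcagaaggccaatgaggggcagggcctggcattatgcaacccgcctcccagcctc
Per3: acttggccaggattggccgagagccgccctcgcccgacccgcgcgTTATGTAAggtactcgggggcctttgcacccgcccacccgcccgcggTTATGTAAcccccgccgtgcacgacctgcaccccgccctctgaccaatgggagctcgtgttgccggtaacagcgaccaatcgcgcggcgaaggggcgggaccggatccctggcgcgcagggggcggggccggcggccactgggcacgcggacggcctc
Cry1: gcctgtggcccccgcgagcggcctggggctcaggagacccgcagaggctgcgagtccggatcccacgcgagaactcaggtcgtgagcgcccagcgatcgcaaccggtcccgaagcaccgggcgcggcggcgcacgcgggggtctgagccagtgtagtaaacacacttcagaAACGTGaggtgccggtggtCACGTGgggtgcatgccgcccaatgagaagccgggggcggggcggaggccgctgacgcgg
Cry2: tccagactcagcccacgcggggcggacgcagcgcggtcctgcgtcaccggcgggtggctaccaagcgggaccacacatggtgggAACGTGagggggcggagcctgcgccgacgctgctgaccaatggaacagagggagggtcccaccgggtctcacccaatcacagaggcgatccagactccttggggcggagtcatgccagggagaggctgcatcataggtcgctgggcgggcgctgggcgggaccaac
The E-box began 166 bases before the start in Per1 and 60 bases before it in Cry1, and the E-prime box 79 bases before it in Cry1 and 166 in Cry2. The D-boxes of Per3 began 205 and 158 bases before its start. The other window of Per1, which is not shown, held none of the motifs. Of the activators, Bmal1 had ROR elements in both of its overlapping windows, and none of these motifs was found in the Npas2 and Clock windows. The 28 bases around the Bmal1 element that lies 30 bases after the later start (chr7:113207527-113207554, plus strand) are shown with the element in capitals.
Bmal1: gggaaggcagaaagTAGGTCAgggacgg
Both windows of Bmal1 and those of Cry2 and Per3 also held a ROR element that overlaps a CCAAT box. These matches are letters in a window and were not tested as binding sites.

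Among the activators, Bmal1 and Npas2 varied widely between libraries and Clock little. Bmal1 (ENSMUSG00000055116.9, GRCm39 chr7:112806152-112914735, plus strand) encodes the partner that every activator pair shares. Its level was 13.9, 6.41, 9.12 and 4.08 CPM in ND_C 1 to 4, and 13.3, 3.20, 3.05 and 2.85 CPM in ND_B12 1 to 4. In D_C it was 3.36, 3.01, 2.89 and 4.04 CPM, and in D_B12 12.8, 11.6, 7.13 and 8.63 CPM. Bmal1 was uniformly low in D_C and high in D_B12, while ND_C was widely spread, with its lowest library just above the highest of D_C, and ND_B12 1 stood far above the other libraries of its group. The group means were 8.38 ± 4.22, 5.60 ± 5.14, 3.33 ± 0.516 and 10.0 ± 2.60 CPM in ND_C, ND_B12, D_C and D_B12 (SD, n = 4 each).

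Npas2 (ENSMUSG00000026077.16, chr1:39232705-39402323, plus strand) encodes the alternative partner of BMAL1. It measured 9.98, 3.53, 6.18 and 2.28 CPM in ND_C, and 8.70, 1.51, 2.46 and 2.81 CPM in ND_B12. The D_C libraries had 2.32, 2.38, 3.39 and 4.16 CPM, and the D_B12 libraries 11.1, 6.99, 6.53 and 9.29 CPM. As with Bmal1, the D_B12 libraries lay above all D_C libraries, and ND_C 1 and ND_B12 1 lay with the D_B12 libraries. Clock (ENSMUSG00000029238.12, chr5:76342860-76452846, minus strand), which overlaps Tmem165 on the opposite strand, measured 94.1, 86.5, 93.0 and 75.9 CPM in ND_C and 97.9, 73.7, 70.4 and 83.4 CPM in ND_B12. It measured 67.7, 95.6, 71.4 and 86.6 CPM in D_C, and 111, 115, 104 and 92.2 CPM in D_B12. The highest D_C library exceeded the lowest D_B12 library, so these groups overlapped. Between the highest and the lowest of the 16 libraries, the ratio was 7.32 for Npas2, 4.87 for Bmal1 and 1.69 for Clock.

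The cryptochrome transcripts ran the other way. Cry1 (ENSMUSG00000020038.11, chr10:84967560-85021252, minus strand), the stronger repressor of the activator pair, measured 2.25, 2.60, 2.67 and 3.31 CPM in ND_C and 2.91, 5.88, 5.45 and 3.07 CPM in ND_B12. It measured 6.84, 4.87, 3.49 and 4.46 CPM in D_C, and 2.77, 2.85, 3.08 and 1.86 CPM in D_B12. Every D_C library was above every D_B12 and every ND_C library, and ND_B12 fell into a low pair (1 and 4) and a high pair (2 and 3). Cry2 (ENSMUSG00000068742.12, chr2:92233894-92264474, minus strand), its paralogue, measured 13.4, 17.7, 15.3 and 22.1 CPM in ND_C and 15.7, 29.2, 29.1 and 31.1 CPM in ND_B12. The D_C libraries had 32.1, 34.6, 30.0 and 30.2 CPM, and the D_B12 libraries 13.6, 15.9, 26.5 and 20.0 CPM. Cry2 was high in all D_C libraries and in ND_B12 2 to 4, and ND_B12 1 was again apart. It overlaps D930015M05Rik on the opposite strand, and whether counting used strand is not stated.

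Of the Period genes, Per1 (ENSMUSG00000020893.18, chr11:68986035-69002300, plus strand), which also responds to glucocorticoids, measured 23.8, 38.5, 43.0 and 22.1 CPM in ND_C and 27.8, 54.8, 60.0 and 72.2 CPM in ND_B12. It measured 51.0, 52.4, 47.1 and 38.4 CPM in D_C, and 29.8, 33.1, 30.7 and 35.1 CPM in D_B12. The D_B12 libraries were close together and below all D_C libraries. Per2 (ENSMUSG00000055866.10, chr1:91343700-91387069, minus strand), the main partner of the cryptochromes, measured 24.4, 38.9, 28.5 and 28.6 CPM in ND_C and 27.6, 39.7, 41.4 and 29.2 CPM in ND_B12. It measured 39.7, 41.0, 24.8 and 26.4 CPM in D_C, and 23.9, 30.4, 23.9 and 19.1 CPM in D_B12, so that all groups overlapped. Per3 (ENSMUSG00000028957.13, chr4:151081373-151129140, minus strand), which is dispensable for the rhythm itself and overlaps Uts2 on the opposite strand, measured 23.6, 43.9, 28.8 and 44.3 CPM in ND_C and 28.1, 52.0, 48.3 and 42.9 CPM in ND_B12. The D_C libraries had 55.7, 33.9, 47.3 and 39.3 CPM, and the D_B12 libraries 20.6, 25.4, 24.8 and 30.4 CPM. All D_B12 libraries were below all D_C libraries. The ratio of the highest to the lowest of the 16 libraries was 3.67 for Cry1, 3.27 for Per1, 2.70 for Per3, 2.58 for Cry2 and 2.16 for Per2.

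**Figure D1:**
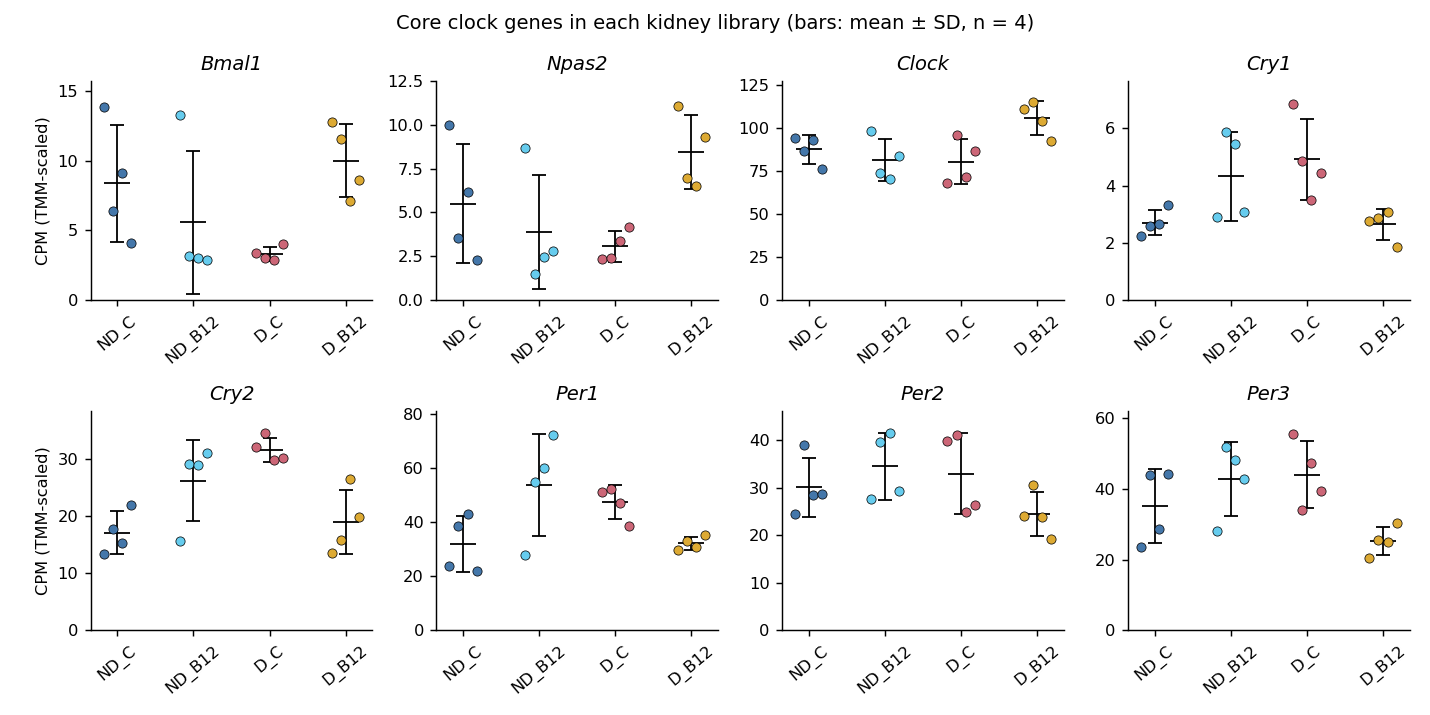
Level of each of the 8 clock genes in CPM (vertical axes, linear and starting at 0) in the 16 libraries by labelled group, with 1 point a library and bars for the mean ± SD of 4. For Bmal1 and Npas2 all 4 D_B12 libraries lie above all 4 D_C libraries, and for Cry1, Cry2, Per1 and Per3 below them.

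Compared between genes per length of transcript, Clock was the most abundant with 10.8 ± 1.83 CPM per kb of transcript (SD over the 16 libraries). Per1 followed with 7.05 ± 2.49, Per3 with 6.52 ± 1.97, Cry2 with 6.26 ± 1.88 and Per2 with 5.37 ± 1.26 CPM per kb. Bmal1 had 1.70 ± 1.03, Npas2 1.51 ± 0.889 and Cry1 1.27 ± 0.478 CPM per kb. Within Per1, Per3, Cry2 and Per2, and within Bmal1, Npas2 and Cry1, neighbours in this order differed by less than their SD over the libraries. The steps from Clock to Per1 and from Per2 to Bmal1 exceeded the SDs.

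In each library, activators and repressors were set against each other as the mean log2 CPM of the 3 activators minus that of the 5 repressors, centred on the mean of the 16 libraries. This difference was 1.44, -0.04, 0.64 and -0.42 in ND_C 1 to 4 and 1.12, -1.39, -1.20 and -0.86 in ND_B12 1 to 4 on the log2 scale. It was -1.28, -0.95, -0.72 and -0.35 in D_C, and 1.44, 0.98, 0.60 and 0.99 in D_B12. The D_C libraries were thus all on the repressor side and the D_B12 libraries all on the activator side of the mean, with 2 of 4 ND_C and 1 of 4 ND_B12 libraries on the activator side. Among the 16 libraries, D_B12 1 ranked 1 for the activators and 15 for the repressors, and ND_C 1 ranked 2 and 16. The ratio of Bmal1 to Per1 counts spanned 0.0396 in ND_B12 4 to 0.583 in ND_C 1. The score is a description, and it was not tested.

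**Figure D2:**
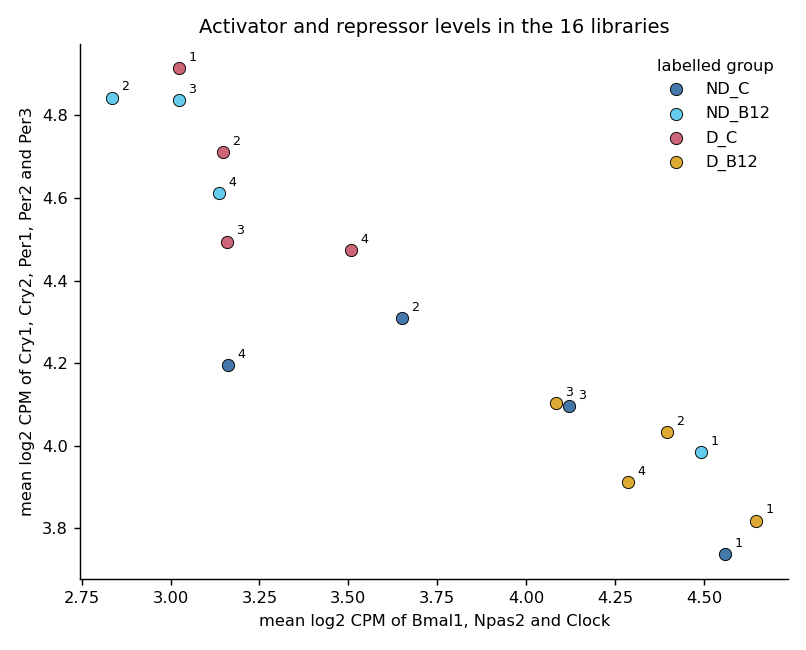
Mean log2 CPM of the 5 repressors (vertical axis) against that of the 3 activators (horizontal axis) in the 16 libraries, coloured by labelled group and numbered by replicate. The libraries lie along a falling band, with D_B12 1 to 4, ND_C 1, ND_C 3 and ND_B12 1 at its activator end and D_C 1 to 4 and ND_B12 2 to 4 toward its repressor end.

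B12 in diabetic kidneys was examined by comparing D_B12 with D_C, to ask whether the clock genes differed with B12 in diabetes. Bmal1 was 3.01-fold and Npas2 2.76-fold higher in D_B12, and Clock 1.31-fold higher. Every repressor was lower, Cry1 by 1.86-fold, Per3 by 1.74-fold, Cry2 by 1.67-fold, Per1 by 1.47-fold and Per2 by 1.35-fold. The D_B12 and D_C libraries did not overlap for Bmal1 and Npas2 (higher) and for Cry1, Cry2, Per1 and Per3 (lower). Over all genes, 3.48% were higher and 3.13% lower without overlap. None of the 8 genes passed an adjusted p of 0.05 in edgeR's quasi-likelihood test, where 0.0% of the 25408 genes did and the smallest adjusted p was 0.0703. At an unadjusted p below 0.05 in that test, all 8 passed, against 13.6% of all genes.

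The log2 fold change was 1.59 for Bmal1 (SE 0.458, edgeR adjusted p = 0.151) and 1.47 for Npas2 (SE 0.483, edgeR adjusted p = 0.196). For Clock it was 0.39 (SE 0.12, edgeR adjusted p = 0.173). It was -0.89 for Cry1 (SE 0.249, edgeR adjusted p = 0.140), -0.74 for Cry2 (SE 0.216, edgeR adjusted p = 0.153) and -0.80 for Per3 (SE 0.22, edgeR adjusted p = 0.138). For Per1 and Per2 the values were -0.55 (SE 0.241, edgeR adjusted p = 0.325) and -0.44 (SE 0.196, edgeR adjusted p = 0.341). The exact two-sided permutation test of 4 against 4 libraries gave 0.0286, the smallest p it allows, for each of the 6 genes without overlap, 0.0571 for Clock and 0.143 for Per2. DESeq2, the tool of the study, called 2.64% of all genes and 4 of the 8, namely Bmal1 (adjusted p = 0.0464), Cry1 (0.0183), Cry2 (0.0223) and Per3 (0.0128). With the date in the library name as a covariate, 5 of the 8 had an unadjusted p below 0.05 in edgeR's test, against 15.4% of all genes. In that fit Cry1 was at -0.47, Per1 at -0.50 and Per2, with its sign changed, at 0.13, and these 3 did not pass, while Bmal1 was at 2.30, Cry2 at -1.27 and Per3 at -1.12. D_C and D_B12 share no date, so this fit cannot separate date from group. The higher mitochondrial share of D_B12 moved with these differences, and its part in them was not tested.

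**Figure D3:**
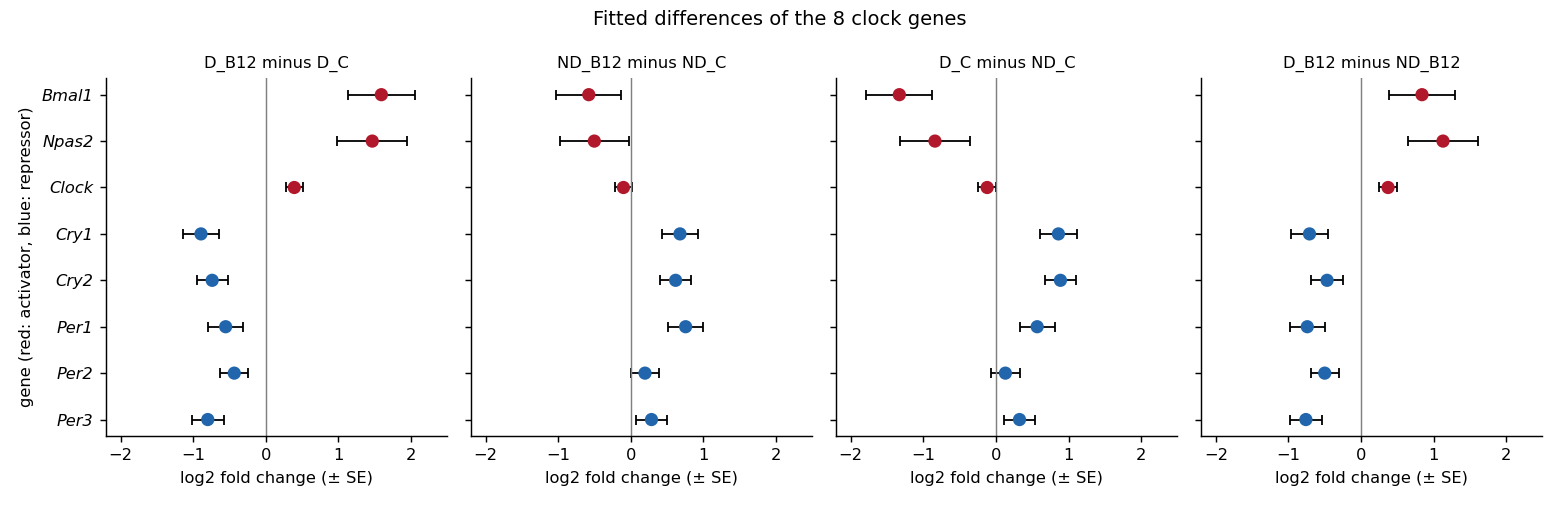
Fitted log2 fold change ± SE (horizontal axes) of the 8 clock genes in 4 comparisons of labelled groups, from edgeR on all 16 libraries, with activators in red and repressors in blue. In D_B12 minus D_C the activators lie at 0.39 to 1.59 and the repressors at -0.89 to -0.44, and the panels share groups and are not independent of each other.

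B12 in non-diabetic kidneys was examined with ND_B12 against ND_C. The repressors Per1, Cry1 and Cry2 were 1.69-fold, 1.60-fold and 1.53-fold higher in ND_B12, with log2 fold changes of 0.75 (SE 0.242), 0.68 (SE 0.250) and 0.62 (SE 0.216). None of the 8 genes passed the adjusted threshold (edgeR adjusted p = 0.572, 0.602 and 0.585 for these 3), and 0.0% of all genes did. At an unadjusted p below 0.05 in edgeR's test those 3 passed, against 7.62% of all genes, and DESeq2 called 0.0236% of all genes and 0 of the 8. Bmal1, Npas2 and Clock had log2 fold changes of -0.58, -0.50 and -0.10, and Per2 and Per3 0.19 and 0.28. All 8 genes overlapped between the groups, where 4.85% of all genes did not. The levels of Bmal1, Npas2, Cry2 and Per1 in ND_B12 1 lay within the ND_C range. That library was also in the set closest to the ND_C column of the study's table. Without that library the values were -1.46 for Bmal1 and -1.28 for Npas2, and without ND_C 1 they were -0.23 and -0.05.

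Diabetes in untreated kidneys was examined with D_C against ND_C, which shares the D_C libraries with the first comparison and the ND_C libraries with the second. Cry2 was 1.85-fold higher in D_C, 0.89 on the log2 scale (SE 0.216, edgeR adjusted p = 0.04996), and it was the only 1 of the 8 to pass, where 1.66% of all genes did. That call was lost in 10 of 16 fits that each left out 1 library. Cry1 was 1.82-fold higher, 0.86 on the log2 scale (SE 0.249, edgeR adjusted p = 0.0827), and Bmal1 2.52-fold lower, -1.33 on the log2 scale (SE 0.456, edgeR adjusted p = 0.129). These 3 genes did not overlap between the groups, against 9.45% of all genes. Per1, with 0.57 (SE 0.241, edgeR adjusted p = 0.218), passed at an unadjusted p below 0.05 together with those 3, against 18.6% of all genes. The other values were -0.84 for Npas2, -0.12 for Clock, 0.13 for Per2 and 0.32 for Per3. Without ND_C 1, Npas2 was at -0.38. With the date as a covariate, Clock was at 0.04 and Cry2 at 0.55 (edgeR adjusted p = 0.4998). ND_C and D_C share no date either, so that fit cannot separate date from group. DESeq2 called 6.44% of all genes and 2 of the 8, Cry1 and Cry2. Without ND_B12 1, which enters only through the shared estimate of the spread, edgeR called Bmal1 (adjusted p = 0.0364) besides Cry2, and 2.12% of all genes.

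Diabetes in B12-treated kidneys was examined with D_B12 against ND_B12, which uses groups of the comparisons above. None of the 8 genes passed, while 0.823% of all genes did. The lowest value was that of Per3, 1.69-fold lower in D_B12, with -0.76 on the log2 scale (SE 0.220, edgeR adjusted p = 0.0989). Per1, Cry1, Per2 and Cry2 were at -0.74, -0.71, -0.50 and -0.47, and Bmal1, Npas2 and Clock at 0.84, 1.13 and 0.37. All but Bmal1 passed at an unadjusted p below 0.05, against 17.0% of all genes, and all 8 overlapped, where 11.8% of all genes did not. ND_B12 1 decided part of this, and it was singled out for its levels of these same genes. Without it, Bmal1 was at 1.72 (edgeR adjusted p = 0.0461) and Per1 at -0.95 (edgeR adjusted p = 0.0486), with 0.361% of all genes called. DESeq2, with all libraries, called 4.68% of all genes and 3 of the 8, Clock, Per1 and Per3.

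The difference between the B12 effects in diabetic and non-diabetic kidneys, the interaction, was 2.17 for Bmal1 (SE 0.639, edgeR adjusted p = 0.125) and 1.97 for Npas2 (SE 0.679, edgeR adjusted p = 0.171) on the log2 scale. For Clock it was 0.49 (SE 0.17, edgeR adjusted p = 0.171). The repressors had negative values, with -1.57 for Cry1 (SE 0.353) and -1.36 for Cry2 (SE 0.305), both at an edgeR adjusted p of 0.0672. Per1 was at -1.31 (SE 0.341, edgeR adjusted p = 0.0933), Per3 at -1.08 (SE 0.31, edgeR adjusted p = 0.114) and Per2 at -0.63 (SE 0.276, edgeR adjusted p = 0.274). None of the 8 passed, nor did any gene of the table (0.0%), and the smallest adjusted p was 0.0521. At an unadjusted p below 0.05 all 8 passed, against 16.1% of all genes. DESeq2 called 3.71% of all genes and 5 of the 8. Leaving out ND_B12 1 alone brought 5 of the 8 past the threshold in edgeR, where 0.845% of all genes passed. These were Bmal1 at 3.06 (edgeR adjusted p = 0.0186), Npas2 at 2.75 (0.0393), Cry1 at -1.72 (0.0393), Cry2 at -1.54 (0.0334) and Per1 at -1.52 (0.038). Of the 16 fits that left out 1 library, the only other to bring a member past it was that without ND_C 4, with Cry2. ND_B12 1 was singled out for its levels of these same genes, so these calls are no independent support.

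Activators varied with activators, repressors with repressors, and the pair of sets against each other across the 16 libraries. All 3 pairs of activators were positively correlated in log2 CPM (Pearson's r 0.77 to 0.91), as were all 10 pairs of repressors (0.42 to 0.74), and all 15 pairs of an activator with a repressor were negatively correlated (-0.93 to -0.45, median -0.73). Of these 28 pairs, 25 had a p below 0.05 by permutation with 100000 resamples after Benjamini-Hochberg adjustment over the 28, and 26 by Spearman's rho. The pairs were looked at with the opposition of activators and repressors already known in these data. Bmal1 and Cry2 were the most strongly opposed, with r = -0.93 and rho = -0.894 (adjusted permutation p = 9.33e-05), and r = -0.909 without the 2 libraries farthest from the median of Bmal1. Clock and Per3 had r = -0.924, Npas2 and Per3 -0.894, and Bmal1 and Npas2 0.911. The weakest pair was Cry2 and Per2 with r = 0.421 (adjusted permutation p = 0.105). Computed on the deviations from the 4 group means, all 28 pairs kept their sign and 11 of 28 passed, with r = -0.92 for Bmal1 and Cry2. Without the 2 farthest libraries, 19 of 28 passed. The libraries share dates and groups, so they are not fully independent points. With the date in the library name itself, the members had r between -0.581 (Per2) and 0.400 (Clock), and none passed after adjustment (smallest permutation adjusted p = 0.152).

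**Figure D4:**
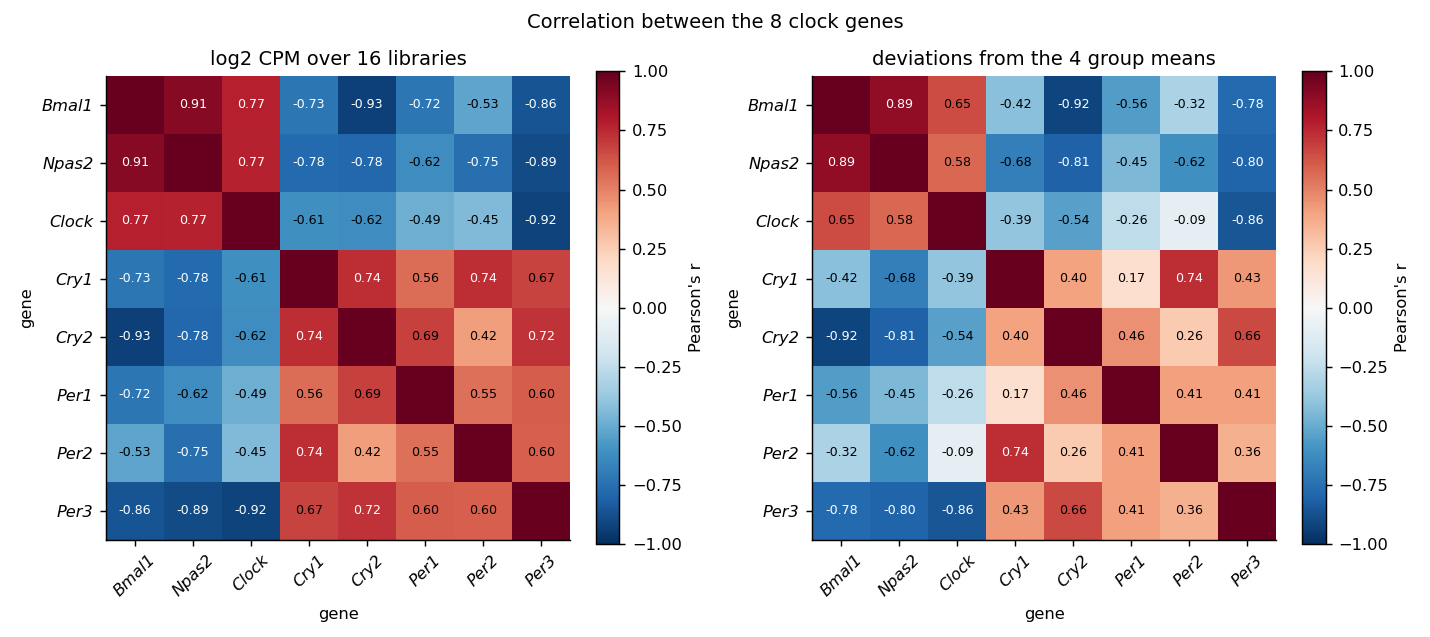
Pearson's r between the 8 clock genes, from log2 CPM over the 16 libraries (left) and from deviations from the 4 labelled group means (right), coloured from -1 (blue) to 1 (red). Activators correlate with activators and repressors with repressors in both panels, and all activator-repressor cells are negative, from -0.93 to -0.45 on the left and from -0.92 to -0.09 on the right.

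Outside the 8 genes, 16064 genes with a mean of at least 1 CPM were searched for the most similar course over the 16 libraries, as a description without a test. Bmal1 was most like Leo1 (r = 0.958), Fbxo30 (0.928) and Zfp397 (0.911), and most opposed to Dbp (-0.964), Klhl26 (-0.916) and Tspan4 (-0.911). Dbp is a clock output factor that binds D-boxes, and it was also the gene most like Per3 (r = 0.932), ahead of Pcgf5 (0.878) and Nr1d2 (0.871). Per3 is the member with the D-boxes shown above, and a link between these and Dbp was not tested. Npas2 was most like Palm3 (0.946), Leo1 (0.885) and Chic1 (0.846), and Clock most like Ccdc50 (0.919), Grk2 (0.908) and Tead1 (0.898). Cry1 was similar to Rnf19b (0.850) and Hivep2 (0.821). Cry2 followed Rell1 (0.928), Synpo2l (0.926) and Gm12966 (0.920). Per1 followed Itprip (0.842), Hlf (0.818), a relative of Dbp, and Vamp2 (0.809), and Per2 followed Prnp (0.885), Wee1 (0.824), a cell cycle kinase, and Gm31105 (0.819).

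The other clock genes were taken as a list of 21 genes, with the nuclear receptors, output factors, further repressors, and the kinases and ligases that set the turnover of PER and CRY. Between D_B12 and D_C none of the 21 passed the adjusted threshold, 1 was higher and 11 lower at an unadjusted p below 0.05 (13.6% of all genes passed in either direction), and their median log2 fold change was -0.26 against -0.000437 over all genes. Dbp and Nfil3, which act on the same D-boxes in opposite directions, had the largest differences. Dbp was lower with -1.24 (SE 0.355, edgeR adjusted p = 0.151), and Nfil3 higher with 1.06 (SE 0.414, edgeR adjusted p = 0.268), both without overlap. Between ND_B12 and ND_C none passed and 3 were higher at an unadjusted p below 0.05, against 7.62% of all genes in either direction, with Nfil3 at -0.63. Between D_C and ND_C none passed, 5 were higher and 2 lower at an unadjusted p below 0.05 (18.6% of all genes in either direction), led by Bhlhe41 (1.14, edgeR adjusted p = 0.0922) and Nfil3 (-0.996). In the interaction none passed, and 1 was higher and 10 lower at an unadjusted p below 0.05 (16.1% of all genes in either direction), with Dbp at -1.72 and Nfil3 at 1.69. Over the 16 libraries Dbp ran from 22.5 to 95.0 CPM and Nfil3 from 1.89 to 9.55 CPM, whereas the turnover genes Btrc (22.4 to 24.9 CPM), Csnk1d (75.2 to 86.1 CPM) and Gsk3b (131 to 158 CPM) stayed in a narrow range.

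At the level of transcripts, 12 of the 36 took a mean share of at least 10% of their gene's count. A single transcript made up nearly the whole count of Per2 (Per2-201, 99.9%), Cry1 (Cry1-201, 98.9%), Npas2 (Npas2-201, 96.9%) and Cry2 (Cry2-201, 90.6%). Clock was divided between Clock-205 (63.0%) and Clock-201 (32.2%), which have the same coding length and differ in their first and last exons. Per1 was carried by Per1-201 (80.4%) and Per1-202 (14.0%), whose coding sequences are 3873 and 2481 bases long, and Per3 by Per3-201 (83.0%) and Per3-205 (13.3%), which is annotated as a retained intron. Short reads are divided between overlapping transcripts by estimation, so these shares are less certain than gene counts.

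The most uneven shares were those of Bmal1, with Bmal1-201 at 72.6% and Bmal1-206 at 14.5% on average. Bmal1-206 made up 62.9, 48.0 and 51.3% of the gene's count in ND_B12 2, 3 and 4 (161, 94 and 120 counts) and 58.7% in D_B12 3 (362 counts), but 0 to 3.88% in the other 12 libraries. Bmal1-201 was at 0.00, 41.8, 42.3 and 21.4% in those 4 libraries and at 77.6 to 92.8% in the rest. The high shares were thus found in 3 of 4 ND_B12 libraries, in which the level of Bmal1 was low, and in 1 of 4 D_B12 libraries, in which it was higher. The mean share was 39.3 percentage points higher in ND_B12 than in ND_C (exact permutation p = 0.114). ND_B12 2 to 4 have the same date in their names as D_C 1, where the share was 3.79%, and D_B12 3 has another, and the part of the date was not tested. Bmal1-201 and Bmal1-206 share 4130 bases and differ by their first exons and by exon 5 of Bmal1-206, a coding exon of 21 bases at GRCm39 chr7:112880609-112880629. It is shown in capitals with 15 flanking bases on each side, since it is the only coding sequence that separates the pair.
Bmal1-206 exon: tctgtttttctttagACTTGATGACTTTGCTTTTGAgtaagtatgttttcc
The exon is in 20 annotated Bmal1 transcripts of GENCODE vM39, but in only 1 of the 6 that the count table lists. Among the listed transcripts, reads over this exon can be assigned only to Bmal1-206.

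Per1 had a comparable exception. In ND_C 4, Per1-206, with the same coding length as Per1-201, held 591 counts or 32.3% of the gene, and Per1-201 was at 42.1% against 69.9 to 88.7% in the other libraries. The gene's level in ND_C 4 was the lowest of the 16.

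**Figure D5:**
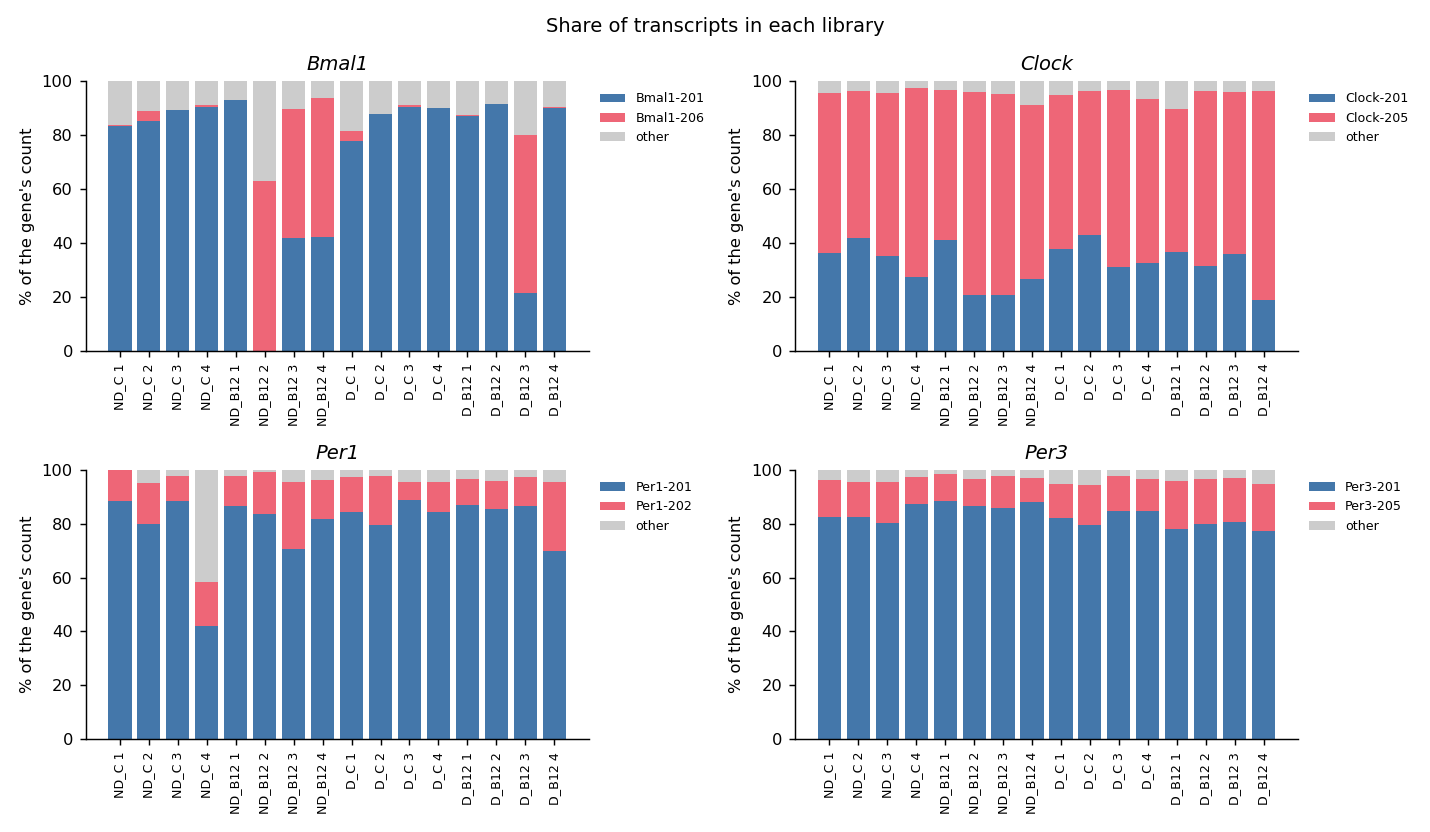
Share of the gene's count (vertical axes, percent) taken by the 2 main transcripts of Bmal1, Clock, Per1 and Per3 and by all others (grey) in each of the 16 libraries. Bmal1-206 takes 48.0 to 62.9% in ND_B12 2 to 4 and D_B12 3 and at most 3.88% elsewhere, and the other transcripts of Per1 take a large share only in ND_C 4.

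Between D_B12 and D_C, none of the 26 tested transcripts passed the adjusted threshold in edgeR, nor did any of the 66503 transcripts of the table (0.0%). At an unadjusted p below 0.05, 4 were higher and 6 lower, against 9.27% of all transcripts. Clock-205 was at 0.44 on the log2 scale (SE 0.11, edgeR adjusted p = 0.324), while Clock-201 was at 0.12. The groups did not overlap for Clock-205, nor for Npas2-201, Cry1-201, Cry2-201, Cry2-203, Per1-201 and Per3-201. The rate of such transcripts over the whole table is not given. Npas2-201 was at 1.42 (SE 0.530, edgeR adjusted p = 0.473). Per3-201 was at -0.92 (edgeR adjusted p = 0.350, SE 0.243), Cry1-201 at -0.96 (edgeR adjusted p = 0.374, SE 0.267) and Cry2-201 at -0.82 (edgeR adjusted p = 0.408, SE 0.249). Per1-201 was at -0.64, Per2-201 at -0.48, Per3-205 at -0.45 and Per1-202 at -0.39. The 2 main transcripts of Bmal1 had wide errors, with 1.38 (SE 1.14) for Bmal1-201 and 4.73 (SE 1.97) for Bmal1-206, and the latter turned to -0.79 without D_B12 3. In the other comparisons none of the 26 passed either, with 5 to 10 of them at an unadjusted p below 0.05 in edgeR's test, against 6.93% of all transcripts in ND_B12 minus ND_C, 9.77% in D_C minus ND_C, 12.1% in D_B12 minus ND_B12 and 12.1% in the interaction. DESeq2 called 5 of the members' transcripts in D_B12 minus D_C, against 1.83% of all transcripts. These were Clock-205, Cry1-201, Cry2-201, Per3-201 and Per1-206, which was at 0 in 7 of these 8 libraries. In DESeq2, 0 of them passed in ND_B12 minus ND_C (0.884% of all transcripts), 3 in D_C minus ND_C (2.15%), 2 in D_B12 minus ND_B12 (3.97%) and 6 in the interaction (3.58%).

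The shares themselves were compared by exact permutation for the 12 main transcripts in 4 comparisons of groups, 48 tests in all, and none passed after adjustment (smallest adjusted exact p = 0.171). The smallest p that 4 against 4 libraries allow, 0.0286, was reached in 8 of them. A pass after adjustment would have needed most of the 48 tests at that smallest p. The adjusted test could thus hardly pass with groups of this size, and it decides nothing about the shares. No rate over all transcripts is given beside these 8. Per3-205, with the retained intron, made up 17.1 ± 0.649% of Per3 in D_B12, 13.1 ± 1.21% in D_C and 10.1 ± 1.32% in ND_B12 (SD, n = 4 each), without overlap with either. The per-library shares were 17.7, 17.0, 16.2 and 17.5% in D_B12 and 12.9, 14.8, 12.7 and 12.0% in D_C. In ND_B12 they were 9.87, 9.90, 11.9 and 8.75%. The count of Per3-205 itself was not higher in D_B12, with 289 to 381 counts there and 428 to 679 in D_C, so its larger share went with fewer counts of Per3-201. Cry2-201 made up 86.7 ± 3.61% of Cry2 in ND_C against 93.4 ± 2.01% in ND_B12 and 92.0 ± 0.697% in D_C, again without overlap. For Cry1-201 the shares were 97.9 ± 0.747% in D_B12 and 99.4 ± 0.269% in D_C. Shares per length of transcript gave the same 8 comparisons at 0.0286.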

How the data were processed

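The authors aligned paired reads of 50 bp with STAR to GRCm39 and GENCODE vM35, and deposited estimated counts per gene and per transcript from StringTie and its prepDE script. All values were whole, and a gene's count is the sum of its transcripts. Each column was matched to a library by its labels, and 0 columns were left over. The members and lists were chosen with earlier results of these data known.

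Genes and transcripts with at least 100 counts over the 16 libraries were tested (25408 of 57186 and 66503 of 149194) with edgeR 4.0.16 in R 4.3.3, by glmQLFit and glmQLFTest with TMM normalization, a mean for each labelled group (12 residual degrees of freedom) and adjustment by Benjamini-Hochberg over the whole table at 0.05. CPM are scaled by TMM, and log2 CPM for correlations used a prior count of 2. All tests were two-sided. The replicates are labelled as biological replicates, 1 kidney sample each. Alternatives were DESeq2 1.42.0, upper-quartile normalization, a filter of at least 1 count, a covariate for the date in the library name, a block for the replicate number, and each library left out in turn. On data simulated for D_B12 minus D_C with 200 of 25100 genes changed 2-fold, edgeR recovered 109 with 4.39% false calls and DESeq2 126 with 24.1%. This was a single simulated set, drawn with edgeR's own dispersions and without a date effect or differences among the other groups. It does not compare the tools on equal terms, and its rates do not carry over to the calls above. The common biological coefficient of variation over the tested genes was 0.201, and the part of counting noise in the precision was not tested.

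Gene positions and transcript lengths are from GENCODE vM39 on GRCm39 and promoters from RefSeq. For 16 of the members' transcripts, the vM39 version is later than that of the counts. Named genes were the 8 members, transcripts with a mean share of at least 10%, the other clock genes that passed in a comparison or else the 2 with the largest change, and for each member the 3 genes of most similar course. A gene that these rules name is not reported here.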

Additional observations from a re-analysis of the deposited data

Results flagged for a closer look

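Within the labelled groups of 4, the highest or lowest library was compared with the rest by Dixon's ratio, at the 95% level, over 32 groups of gene levels and 48 groups of transcript shares. Of these, 2 and 7 exceeded it, where chance marks about 1 in 20 groups, so the 2 of 32 are near that rate. Shares of a gene's main transcripts largely mirror each other, so the 7 are not separate events. Bmal1 was at 13.3 CPM in ND_B12 1, above the other 3 libraries of ND_B12. Cry2 was at 15.7 CPM in the same library, below the others. The Bmal1-206 share was 58.7% in D_B12 3, where Bmal1-201 was at 21.4%, both apart from the rest of D_B12. In ND_C 2 the Bmal1-206 share was 3.88%, above the other ND_C libraries. Per1-202 made up 25.6% and Per1-201 69.9% of Per1 in D_B12 4, the first above and the second below the other D_B12 libraries. Cry1-201 was at 99.6% in ND_B12 4, above its group, and Per2-201 at 99.8% in ND_C 1, below its group, both by a small amount.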

How the results depend on the processing

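For the 8 genes, 621 of 640 values computed with 1 library left out kept their direction and their side of the threshold, 10 lost and 9 gained significance, and 0 changed sign. Under the other settings 179 of 200 did, 3 lost and 15 gained significance and 3 changed sign, all with the date as a covariate: Per2 in D_B12 minus D_C (0.13), Clock in D_C minus ND_C (0.042) and Per2 in D_B12 minus ND_B12 (0.29). Per2-201 in D_B12 minus D_C became 0.058 with the date, and Bmal1-206 there ran from -0.79 (without D_B12 3) to 6.83 (without D_C 1). The cause was not tested. In a pairwise comparison, leaving out a library of another group acts almost only through the shared estimate of the spread. Such a fit could hardly change a direction. Only Cry2 in D_C minus ND_C was called in the main fits, so the other values had no call to lose.

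In D_B12 minus D_C, 0 genes were called in edgeR, 670 with DESeq2, 204 with the date (0 of the 8), and 0 to 69 with 1 library left out, the most without D_C 1. In ND_B12 minus ND_C the counts were 0, 6 with DESeq2, and 0 to 2. In D_C minus ND_C they were 423, 1637 with DESeq2, 63 with at least 1 count, 2 with the date, and 0 (without ND_C 2) to 1552 (without D_C 1). The Cry2 call there was lost with upper-quartile normalization (edgeR adjusted p = 0.0517), with at least 1 count (0.0814) and with the date (0.4998). In D_B12 minus ND_B12 they were 209, 1189 with DESeq2, 18 with upper-quartile normalization, 35 with at least 1 count, 29 with the date, and 0 (without ND_B12 2) to 441 (without D_C 2). For the interaction they were 0, 943 with DESeq2, 753 with the date (Cry2 alone of the 8), and 0 to 266, the most without D_C 1. Without ND_C 4 Cry2 passed in the interaction (edgeR adjusted p = 0.0460).

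Transcript calls were 0 in every comparison in edgeR. In the order above, DESeq2 called 1219, 588, 1428, 2642 and 2380, and the date gave 10 in the interaction. With 1 library left out, edgeR called 0 to 1, 0 to 4, 0 to 12, 0 to 34 and 0 to 3. Of the 28 correlated pairs, 11 passed on deviations from the group means against 25 over all libraries.

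Libraries with the same replicate number had deviations correlated at -0.231 to 0.245 (median 0.00966). Those with different numbers were at -0.338 to 0.358 (median 0.000581). The same-number pairs thus lay within the range of the others, and the main fits used no pairing. With the replicate number as a block, 269 genes were called in D_C minus ND_C, 25 in D_B12 minus ND_B12 and 147 in the interaction, where Cry2 passed (edgeR adjusted p = 0.0395), and it changed no other call among the 8.

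Each group has 4 libraries, and the group labels differ from the study's table. Date cannot be told apart from group in D_B12 minus D_C, D_C minus ND_C or D_B12 minus ND_B12. With a single time of day besides, these data describe the labelled libraries only. Depth limits the shares of Bmal1-206, which rest on 94 to 362 counts where they were high.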
